A study of Mus musculus with 2 samples.

Results

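The genes described here are 10 members of the matrix metalloproteinase system: the secreted proteases Mmp2, Mmp3, Mmp9, Mmp11, Mmp12 and Mmp13, the membrane-bound protease Mmp14, and the tissue inhibitors of metalloproteinases Timp1, Timp2 and Timp3. They were taken by gene symbol from the 32285 genes of the deposited count tables. The tables come from single cells of KPPC mouse pancreatic tumours, 1 library from vehicle and 1 from takinib, an inhibitor of the kinase TAK1 (Map3k7), given at 50 mg/kg. Both libraries are from KPPC mice that were 6 weeks old and were treated for 14 days. The labels do not spell out the KPPC alleles, the promoter of the Cre or how many mice went into a library. Tumours were dissociated with collagenase and DNase, and transcripts were counted by unique molecular identifiers (UMIs). With 1 library per group there is no replicate error and no test of the treatment: every interval below is a 95% interval for counting error only, and differences between the libraries cannot be told apart from differences between the mice.

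Matrix metalloproteinases are zinc enzymes made as inactive proenzymes that cut collagens, elastin, other matrix proteins and many cell-surface and secreted proteins. TIMPs bind the active site of the enzymes and block them, and TIMP2 bound to the membrane enzyme MMP14 also takes part in the activation of pro-MMP2. In pancreatic tumours these genes are known from fibroblasts, macrophages, neutrophils and the carcinoma cells. TAK1 acts upstream of NF-kB and of AP-1, the transcription factor family long known to bind promoters of several MMP genes.

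Mmp3 (ENSMUSG00000043613), Mmp12 (ENSMUSG00000049723) and Mmp13 (ENSMUSG00000050578) lie in 1 stretch of 183 kb on mouse chromosome 9 in GENCODE's annotation of GRCm38, at chr9:7445822-7455975, chr9:7344381-7369499 and chr9:7272514-7283331, all on the plus strand. The other members are dispersed: Mmp2 at chr8:92827291-92853420, Mmp9 at chr2:164940780-164955850, Mmp11 at chr10:75923222-75936496, Mmp14 at chr14:54431612-54445364, Timp1 at chrX:20870166-20874735, Timp2 at chr11:118301069-118355740 and Timp3 at chr10:86300372-86349506. Mmp11 and Timp2 are on the minus strand and the rest on the plus strand. Promoters were read from RefSeq's GRCm38.p6 windows, which run from 250 bases before to 50 bases after a start. They matched 8 of the 10 genes with 9 promoters. Mmp2 and Mmp9 had no window, so the motif below was not looked for in them. The AP-1 motif TGANTCA, which reads the same on both strands, was in 3 of these 9 windows, all in the chromosome 9 stretch. They were those of Mmp3 and Mmp13 and the window of the downstream start of Mmp12. The window of the upstream start of Mmp12 had no match. It was in 2565 of all 32851 RefSeq promoter windows (7.81%). The 100 bases before the start are shown for these 3 promoters because their genes share the motif and lie side by side, with the motif in capitals, and for Timp1 as a promoter without a match.
Mmp3, chr9:7445722-7445821, plus strand: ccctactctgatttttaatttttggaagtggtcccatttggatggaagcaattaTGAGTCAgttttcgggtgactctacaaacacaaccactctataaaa
Mmp12 downstream start, chr9:7347274-7347373, plus strand: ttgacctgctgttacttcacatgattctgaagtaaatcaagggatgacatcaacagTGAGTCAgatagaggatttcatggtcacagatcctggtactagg
Mmp13, chr9:7272414-7272513, plus strand: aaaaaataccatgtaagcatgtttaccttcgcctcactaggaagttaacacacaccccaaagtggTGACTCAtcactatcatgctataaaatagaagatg
Timp1, chrX:20870066-20870165, plus strand: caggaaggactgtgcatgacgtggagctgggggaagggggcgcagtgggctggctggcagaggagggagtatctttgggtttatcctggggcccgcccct
The first base of the motif lies at -46 in Mmp3, -44 at the downstream start of Mmp12 and -35 in Mmp13, counted from the start. A match is a description of these letters and no binding was measured. The 3 genes did not all share a leading cell class. Among named classes of at least 50 cells, Mmp3 was led by fibroblast-like cells and Mmp12 by macrophage-like cells in both libraries. Mmp13 was led by perivascular-like cells in vehicle (44.0 CPM) and by macrophage-like cells in takinib (11.3 CPM). Macrophage-like cells held most counts of both Mmp12 (92.5% in vehicle, 92.7% in takinib) and Mmp13 (65.6% and 69.9%).

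After filtering, 9558 vehicle cells (median 3556 UMIs) and 25183 takinib cells (median 2887 UMIs) were kept, with 42000538 and 119726977 UMIs in all. The libraries stood apart in several ways that touch every result. The deposited vehicle table is unfiltered and the takinib table was filtered before deposit, and median mitochondrial content was 8.70% against 1.79%. The vehicle library holds cells with Y-linked UMIs and no Xist (3087) and cells with Xist and no Y-linked UMIs (1075), so it mixes sexes, while no takinib cell had a Y-linked UMI and 14324 had Xist. Neutrophil-like cells were 2.81% of vehicle cells and 47.9% of takinib cells, fibroblast-like cells were 5.88% and 0.409%, macrophage-like cells 49.9% and 24.6%, and epithelial-like cells 17.9% and 7.59%. The 2 libraries shared 400 barcodes among those past the filters, and leaving these out changed no count of members given below. RNA of S100a8 and S100a9, which neutrophils hold in large amounts, was also counted in other cell classes of the takinib library, for example at 96.4 CPM in vehicle and 9852 CPM in takinib epithelial-like cells. Cell classes were rebuilt by clustering without the member genes and named "-like" from marker genes.

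Where a pair of values follows, vehicle is given first and takinib after it. Each member had a class in which its level, in CPM (UMI counts scaled by the class's UMI total, per 1000000), was highest. In the vehicle library fibroblast-like cells led for Mmp2, Mmp3, Mmp14, Timp1, Timp2 and Timp3, macrophage-like cells for Mmp12, neutrophil-like cells for Mmp9, and perivascular-like cells for Mmp11 and Mmp13. Unnamed clusters and classes under 50 cells were left out of this order. In the takinib library fibroblast-like cells led for Mmp2, Mmp3, Mmp11, Mmp14 and the 3 TIMPs, neutrophil-like cells for Mmp9, and macrophage-like cells for Mmp12 and Mmp13; the perivascular-like class had 14 takinib cells. The unnamed cluster described below stood above takinib fibroblast-like cells for Mmp3, Timp1 and Timp3. For Mmp11 the vehicle order was not resolved, with 54.4 CPM in perivascular-like and 48.7 CPM in fibroblast-like cells.

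**Figure D1:**
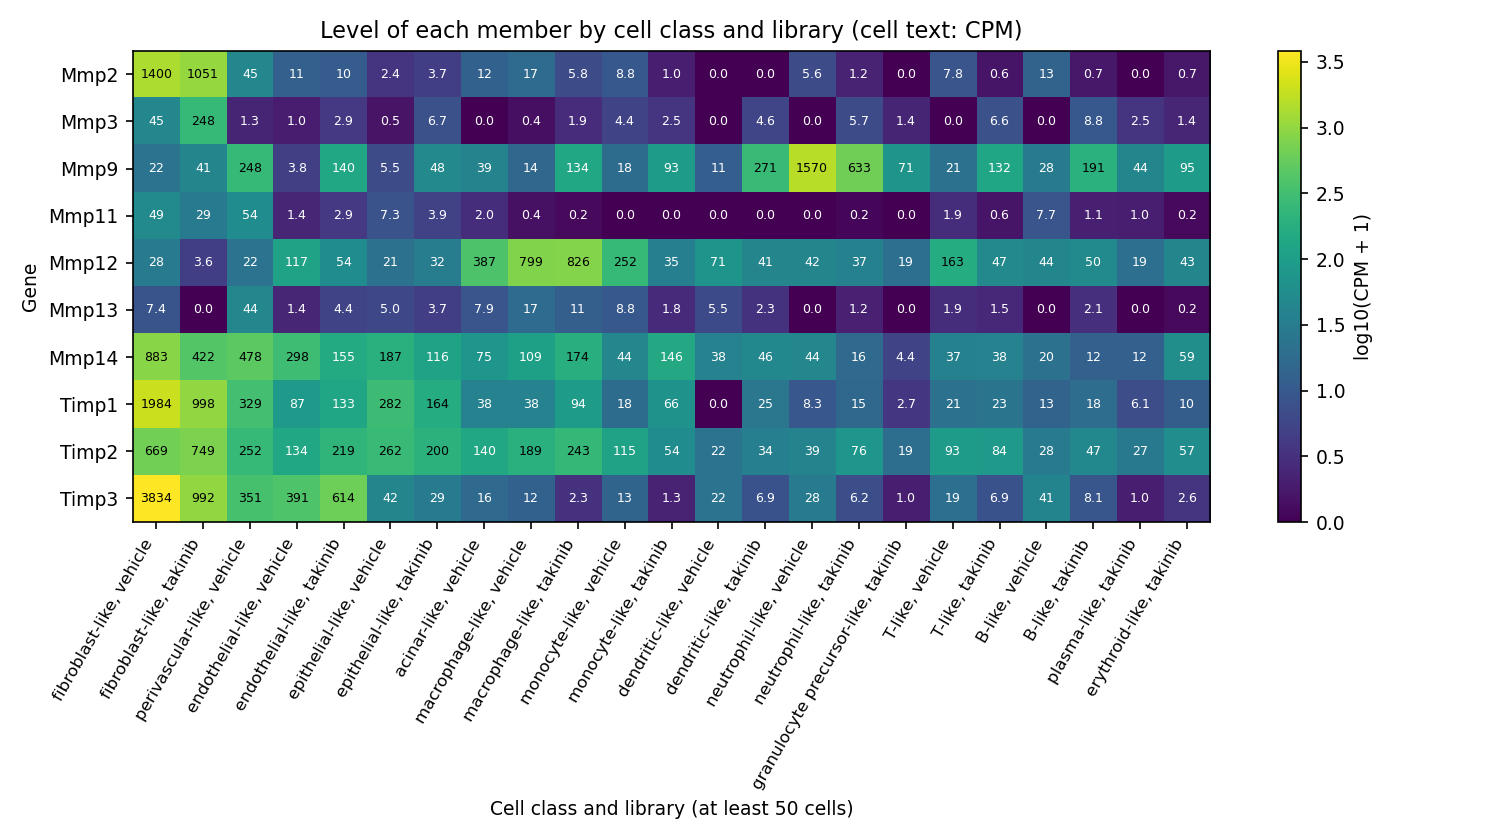
Level of each of the 10 members (rows) in each cell class and library with at least 50 cells (columns), as CPM in the cell text and as log10(CPM + 1) in colour. Mmp2 is at 1400.1 and 1051 CPM in fibroblast-like cells and at or below 44.9 CPM in every other class shown, Mmp9 is highest in neutrophil-like cells and Mmp12 in macrophage-like cells.

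The classes that hold most of the transcripts differed between the libraries. Fibroblast-like cells held 83.5% of the vehicle library's Mmp2 counts, 74.6% of Mmp3, 70.7% of Timp3 and 43.8% of Timp1. In the takinib library the clusters left unnamed held 68.2% of Timp1 counts, 65.2% of Mmp3, 72.3% of Timp3 and 35.6% of Mmp2. Mmp12 had nearly the same share in macrophage-like cells in both libraries, 92.5% in vehicle and 92.7% in takinib, and macrophage-like cells also led in both for Mmp13 (65.6% and 69.9%), Timp2 (39.4% and 51.5%) and Mmp14 (27.3% and 57.5%). For Mmp9, vehicle counts were spread over neutrophil-like (35.6%), perivascular-like (34.8%) and macrophage-like cells (18.5%), and takinib counts over neutrophil-like (66.0%) and macrophage-like cells (20.5%). Over all kept cells Mmp2 stood at 86.1 (vehicle) and 12.6 CPM (takinib), Timp3 at 278 and 63.5 CPM, and Mmp9 at 37.8 and 237 CPM. Timp1 was at 233 and 242 CPM, although the classes that held it differed. In sums over all cells, fewer cells of a class and less RNA per cell cannot be told apart.

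**Figure D2:**
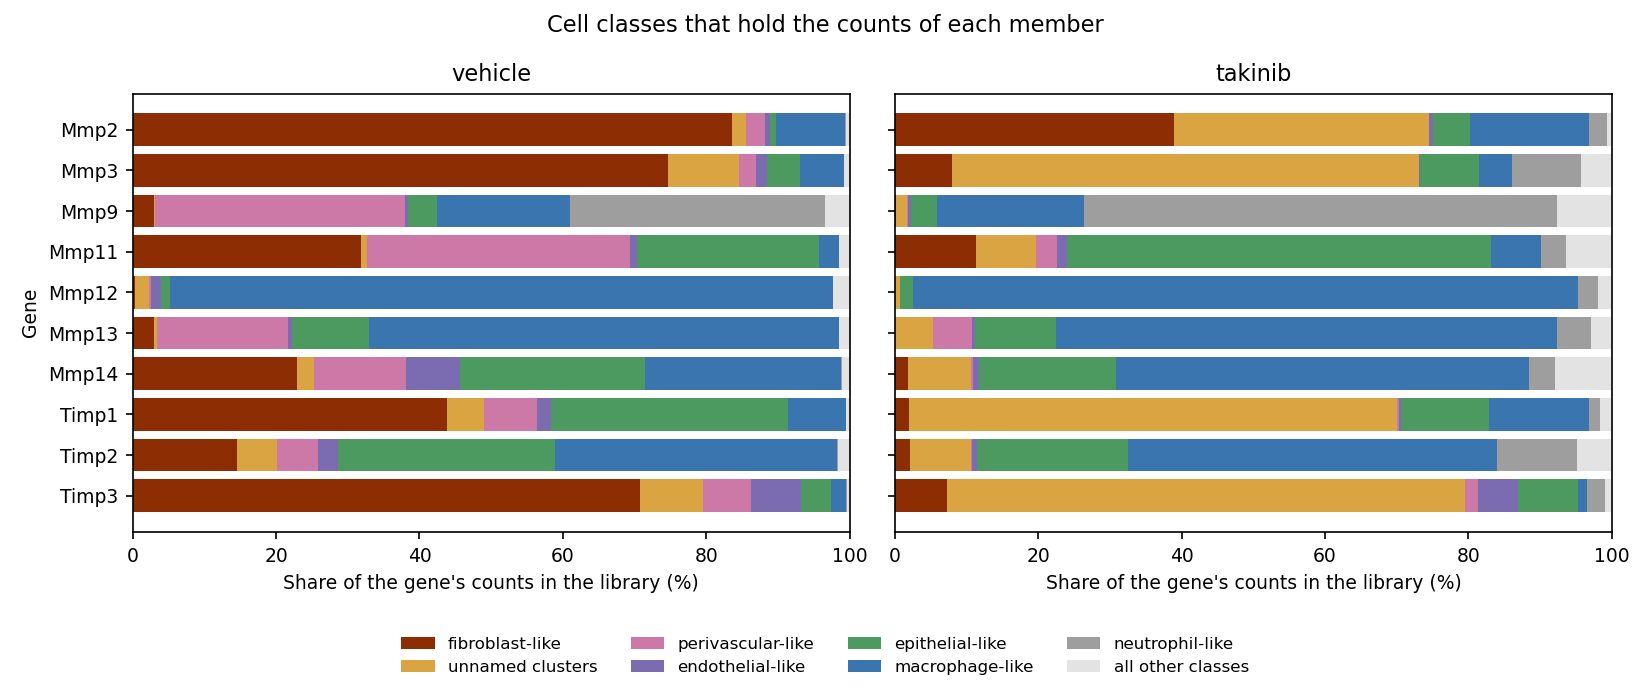
Share of each member's counts (percent of the gene's counts in the library, horizontal axis) held by each cell class, for the vehicle library on the left and the takinib library on the right. The orange stretch of unnamed clusters is 5.14% for Timp1 in vehicle and 68.2% in takinib, while the macrophage-like stretch of Mmp12 is 92.5% and 92.7%.

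In fibroblast-like cells the basement-membrane gelatinase Mmp2 was counted in most cells of both libraries, and Mmp14 and Timp3 were lower in takinib. The class held 562 vehicle and 103 takinib cells, all 10 fibroblast markers were detected in both, and they summed to 16761 CPM (vehicle) and 16070 CPM (takinib). Of the 9 members with at least 50 counts, 1 (Mmp3) was at least 2-fold higher in takinib, against 3.68% of the 6895 genes measured in the class, and 3 (Mmp12, Mmp14 and Timp3) were at least 2-fold lower, against 9.53%. The members' median log2 ratio of takinib to vehicle was -0.77, and that of all genes measured was -0.12. Neutrophil markers moved alongside, from 195 to 8694 CPM. With a neutrophil profile subtracted in proportion to S100a8 and S100a9, Mmp12 and Timp3 stayed 2-fold lower and Mmp14 did not (log2 ratio -0.98). The Mmp12 call did not hold with each library clustered on its own, where its log2 ratio went from -2.98 to 1.03.

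Mmp2, which cuts type IV collagen and gelatin, was counted in 87.5% of vehicle and 88.3% of takinib fibroblast-like cells. After each cell was thinned to 1000 UMIs these shares were 64.2% and 62.1%. Median depth was 3148.5 and 3585 UMIs in this class. In B-like cells, which should lack these genes and had median depths of 1543 and 1817 UMIs, Mmp2 was counted in 2.43% and 0.162% of cells, Mmp14 in 3.88% and 2.27%, Timp1 in 2.43% and 3.24% and Timp3 in 7.28% and 1.46%, all far below the shares of fibroblast-like cells. Its level was 1400.1 CPM (interval 1351 to 1451) in vehicle and 1051 CPM (968 to 1139.7) in takinib, a log2 ratio of -0.41 (-0.54 to -0.29). Mmp14, the membrane enzyme that activates pro-MMP2, was at 883 CPM in vehicle against 422 CPM in takinib, a log2 ratio of -1.07 (-1.27 to -0.87). Cells with a Mmp14 UMI were 80.2% and 77.7% as deposited and 53.4% and 31.1% after thinning. The level of Mmp14 was lower in takinib than in either sex of vehicle cells, which stood at 1166 CPM (Xist only) and 821 CPM (Y-linked only). The ratio was just under 2-fold against the Y-linked-only cells (-0.96) and with ratios scaled to the median gene (-0.94). Mmp11, the stromelysin named for its high level in tumour stroma, was at 48.7 and 28.6 CPM on only 105 and 16 counts, and its log2 ratio of -0.77 had an interval of -1.63 to 0.00. Mmp12 had 61 vehicle counts and 2 takinib counts in this class. Its levels of 28.3 CPM (vehicle) and 3.58 CPM (takinib) were not above those of B-like cells, at 43.5 and 50.2 CPM. The vehicle barcodes with very few UMIs described below held Mmp12 at 351 CPM. The part of macrophage RNA in the Mmp12 call was not tested. Mmp13 had 16 and 0 counts, and the limit of 3 counts that is used here for a count of 0 corresponds to 5.36 CPM (exact Poisson upper limit 6.59 CPM).

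Mmp3 (stromelysin-1), which cuts matrix proteins and activates other proenzymes, had 97 counts (45.0 CPM) in vehicle and 139 counts (248 CPM) in takinib fibroblast-like cells, a log2 ratio of 2.47 (2.08 to 2.86). A single takinib cell held 101 of the 139 counts. Without the cell with the most counts in each library the log2 ratio was 0.77, below the 2-fold mark. The share of cells with a Mmp3 UMI was 5.87% in vehicle and 12.6% in takinib, and 3.56% and 6.80% after thinning. B-like cells had Mmp3 in 0 of 206 vehicle cells and in 1.54% of takinib cells.

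Timp3 is the inhibitor that binds to the matrix and also blocks some ADAM proteases. It had 8270 counts (3834 CPM) in vehicle and 555 counts (992 CPM) in takinib fibroblast-like cells, a log2 ratio of -1.95 (-2.08 to -1.83). Cells with a Timp3 UMI were 77.8% and 46.6%, and after thinning 65.3% and 26.2%. It was lower in takinib than in both sexes of vehicle cells, at 2315 CPM (Xist only) and 4573 CPM (Y-linked only). Timp1, the inducible inhibitor that also binds the cell surface, was at 1984 and 998 CPM, a log2 ratio of -0.99 (-1.12 to -0.86). That value did not hold across the vehicle cells: Xist-only cells were at 883 CPM, which gives 0.18, and Y-linked-only cells at 2937 CPM, which gives -1.56. One vehicle cell held 1126 of the 4280 Timp1 counts. Timp2 was at 669 and 749 CPM, a log2 ratio of 0.16.

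**Figure D3:**
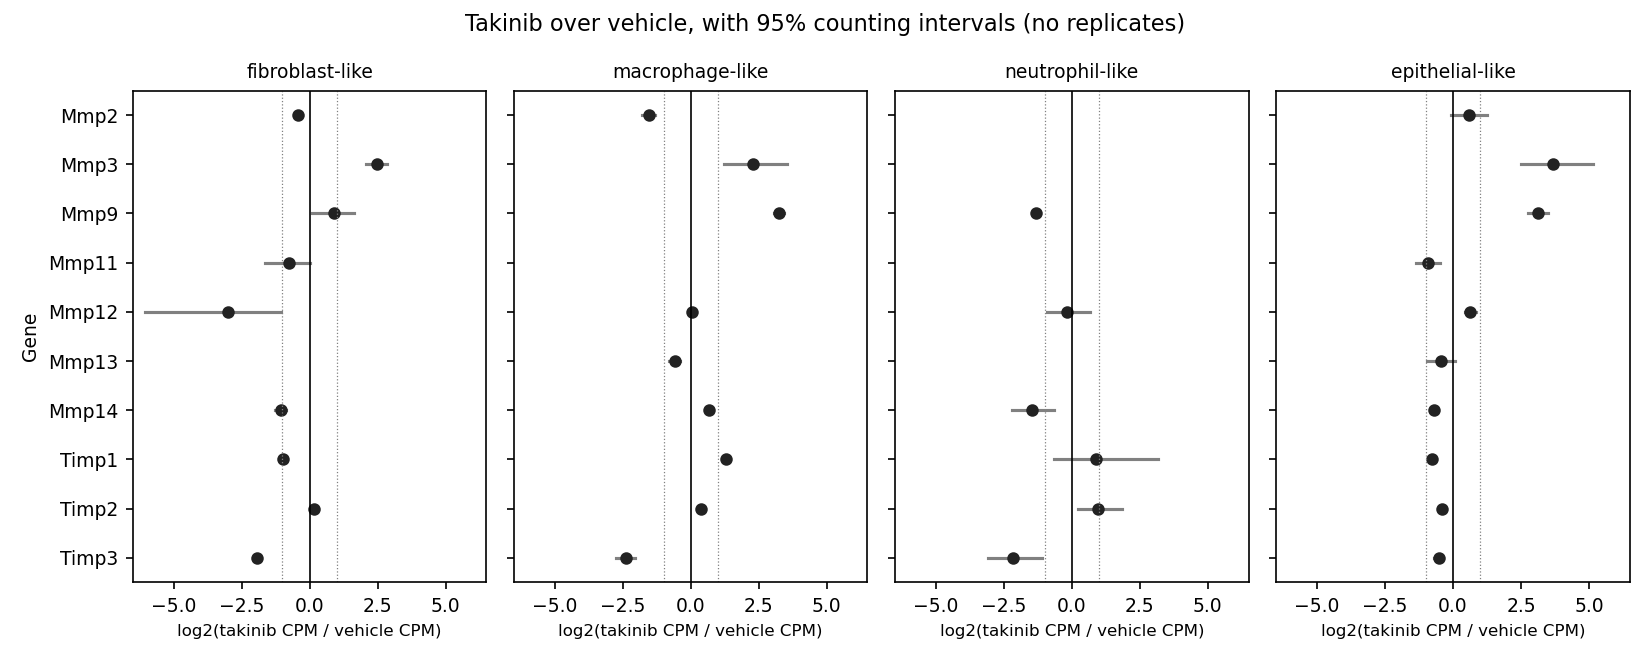
Log2 ratio of takinib CPM to vehicle CPM for each member (rows) with at least 50 counts over both libraries in 4 cell classes (panels), with 95% counting intervals as bars and dotted lines at 2-fold. Mmp3 and Mmp9 lie to the right of 2-fold in macrophage-like and epithelial-like cells, Mmp9 lies to the left in neutrophil-like cells, and Timp3 lies to the left in fibroblast-like, macrophage-like and neutrophil-like cells.

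The highest takinib levels of Timp1 and Mmp3 were in a cluster that was left unnamed. It held 136 vehicle and 251 takinib cells and was led by Serpinb2, Ptgis and Dcn. All 10 fibroblast markers were detected in it, summing to 9287 and 10194 CPM, but so were all 5 mesothelial markers, at 934 and 329 CPM. When each library was clustered on its own, 250 of the 251 takinib cells fell in fibroblast-like clusters, while 91 of the 136 vehicle cells fell in a mesothelial-like one. The names its cells took thus differed by library. Macrophage markers in it were at 4833 and 1151 CPM and neutrophil markers at 262 and 10750 CPM, and their part was not tested.

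Timp1 in this cluster had 498 counts (672 CPM) in vehicle and 19698 counts (6152 CPM) in takinib, a log2 ratio of 3.19 (3.07 to 3.33). Vehicle cells of this cluster differed by sex, with Timp1 at 98.2 CPM (9 counts) in 19 Xist-only cells and at 976 CPM in 59 Y-linked-only cells, both below the takinib level. The cells with a Timp1 UMI were 55.1% and 66.9% at median depths of 4325.5 and 9684 UMIs, and 22.8% and 46.2% after thinning. The median over takinib cells with a Timp1 UMI was 18.5, the highest cell had 1382, and 13 cells held at least 50% of the counts. Mmp3 had 13 counts (17.5 CPM) in vehicle and 1140 counts (356 CPM) in takinib, a log2 ratio of 4.34 (3.56 to 5.26). Those 1140 counts came from 27 of 251 cells, and 2 cells held at least 50% of them. The 27 cells with Mmp3 had a median of 5 Timp1 UMIs at a median depth of 14639 UMIs, and the other 224 a median of 3 Timp1 UMIs at 8880.5 UMIs. Mmp9 had 2 and 235 counts (2.70 and 73.4 CPM), a log2 ratio of 4.77 (2.90 to 7.82), beside the higher neutrophil markers. Mmp12 was lower in takinib, at 329 and 47.2 CPM (log2 ratio -2.80), beside lower macrophage markers. Of the rest, Timp3 was at 1392 and 1715 CPM, Timp2 at 726 and 486 CPM, Mmp14 at 237 and 310.1 CPM, and Mmp2 at 94.4 and 168 CPM. With this cluster counted as fibroblast-like the direction of Timp1 in the class turned, to a log2 ratio of 1.71, Mmp3 stood at 3.16, Timp3 at -0.997 and Mmp2 at -1.83.

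**Figure D4:**
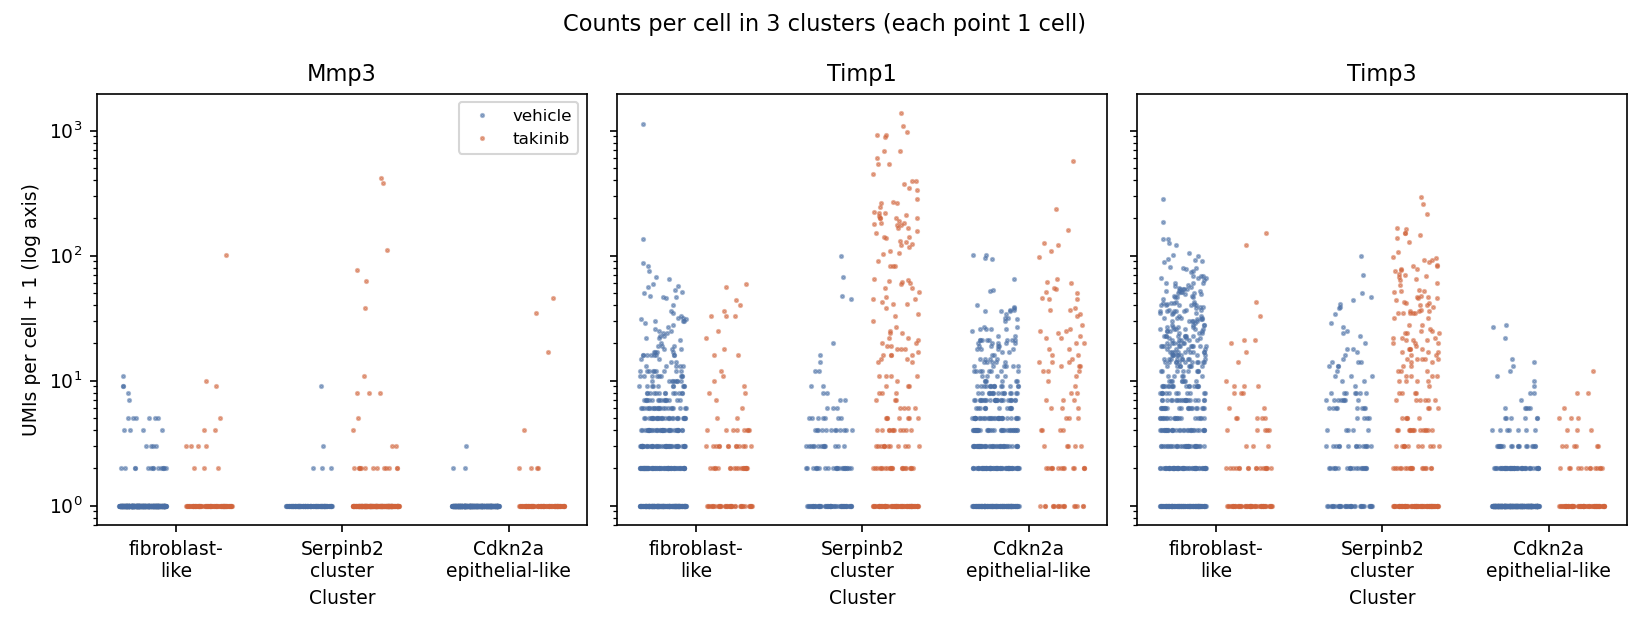
UMIs per cell plus 1 (vertical log axis) of Mmp3, Timp1 and Timp3 in fibroblast-like cells, the unnamed Serpinb2 cluster and the Cdkn2a-led epithelial-like cluster, with each point 1 cell and the libraries side by side. Takinib cells of the Serpinb2 cluster reach 1382 Timp1 UMIs and 418 Mmp3 UMIs, and the highest single vehicle fibroblast-like cell has 1126 Timp1 UMIs.

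In macrophage-like cells the macrophage elastase Mmp12 had nearly the same level in both libraries, while Mmp9 and Timp1 were higher in takinib. The class held 4773 vehicle and 6199 takinib cells, and all 10 macrophage markers were detected in both, summing to 22566 and 12719 CPM. Of 9 members measured, 3 (Mmp3, Mmp9 and Timp1) were at least 2-fold higher, against 6.51% of 12448 genes, and 2 (Mmp2 and Timp3) at least 2-fold lower, against 7.15%. The members' median log2 ratio was 0.36 and that of all genes -0.04. Neutrophil markers stood at 364 and 7854 CPM.

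Mmp12 cuts elastin and is made chiefly by macrophages. It had 16522 counts in vehicle (799 CPM, 786 to 811) and 35772 in takinib (826 CPM, 818 to 835), a log2 ratio of 0.05. The cells with a UMI, however, were 47.6% and 31.2%, and 29.8% and 17.6% after thinning, so a smaller share of takinib cells held the class's counts. The clusters of the class show where: a Gpnmb-led cluster of 845 takinib cells stood at 3077 CPM (3039 to 3115), with Mmp12 in 77.9% of its cells, and held 70.3% of the takinib counts of the class. That cluster had 34 vehicle cells. In vehicle, a Dcstamp-led cluster with MHC class II genes (2610 vehicle, 201 takinib cells) held 72.0% of the class's counts. B-like cells had Mmp12 in 7.28% and 7.61%. In 3 of the 4 clusters with at least 50 cells in both libraries the level hardly moved: 1093 and 1153 CPM in the Dcstamp cluster, 335 and 347 CPM in an Ear2-led cluster, and 471 and 488 CPM in a cycling cluster. A Ccl8- and Cd163-led cluster was lower in takinib, at 353 and 96.8 CPM, but 1 vehicle cell held 353 of its 419 counts. Mmp12 was also counted in classes with no macrophage name, at 387 CPM in vehicle acinar-like and 163 CPM in vehicle T-like cells. Macrophage markers were at 14999 CPM in vehicle acinar-like and 6615 CPM in vehicle T-like cells, and their part was not tested. Vehicle barcodes of 1 to 100 UMIs held Mmp12 at 351 CPM (307 to 399.6).

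Mmp14 in macrophage-like cells was at 109 and 174 CPM, a log2 ratio of 0.67, and Timp1 at 38.4 and 93.7 CPM, a log2 ratio of 1.29 (1.18 to 1.40). Both were highest in a cluster led by U90926 and Saa3, with 2352 takinib and 9 vehicle cells. In its takinib cells Mmp14 was at 323 CPM, in 74.3% of cells, and Timp1 at 204 CPM, in 27.9%, and the cluster held 76.5% of the class's takinib Timp1 counts. In clusters present in both libraries Timp1 had no common direction: it was at 38.9 and 30.02 CPM in the Dcstamp cluster, 40.1 and 29.6 CPM in the Ear2 cluster, 21.9 and 35.1 CPM in the Cd163 cluster, and 35.2 and 51.6 CPM in the cycling cluster. Mmp14 was at 161 and 159 CPM in the Dcstamp cluster and at 80.1 and 133 CPM in the Cd163 cluster. In the Ear2 cluster it was at 43.8 and 36.9 CPM and in the cycling cluster at 70.4 and 72.4 CPM. The Timp1 direction of the class depended on which clusters carried its name: with coarser clustering, at a resolution of 0.5, its log2 ratio was -0.36. Xist-only vehicle macrophage-like cells had Mmp14 at 44.7 CPM, for a log2 ratio of 1.96.

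Timp2, the inhibitor that pairs with Mmp14, was at 189 and 243 CPM in macrophage-like cells, a log2 ratio of 0.36. Its highest level was in the Cd163 cluster, at 442 and 725 CPM (log2 ratio 0.71), against 177 to 199.8 CPM in the Ear2 and Dcstamp clusters and 116 CPM in the Saa3 cluster of takinib. The collagenase Mmp13 was at 17.0 and 11.3 CPM on 351 and 490 counts, a log2 ratio of -0.58. Of the takinib cells, 6 held at least 50% of its counts. Its direction turned against Xist-only vehicle cells, which had 9 counts (3.56 CPM), to a log2 ratio of 1.67. Mmp2, at 17.0 and 5.82 CPM, and Timp3, at 11.9 and 2.29 CPM, were lower in takinib, with log2 ratios of -1.54 and -2.38. Against Xist-only vehicle cells the Mmp2 ratio was -0.03. B-like cells, which should lack both genes, had Mmp2 at 12.8 and 0.702 CPM and Timp3 at 41.0 and 8.07 CPM, and vehicle barcodes of 1 to 100 UMIs held Mmp2 at 58.3 and Timp3 at 189 CPM, so the vehicle macrophage-like levels lay below those of such barcodes. Mmp3 rested on 8 and 81 counts, and its takinib level of 1.87 CPM was below that of takinib B-like (8.77 CPM) and T-like cells (6.62 CPM).

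**Figure D5:**
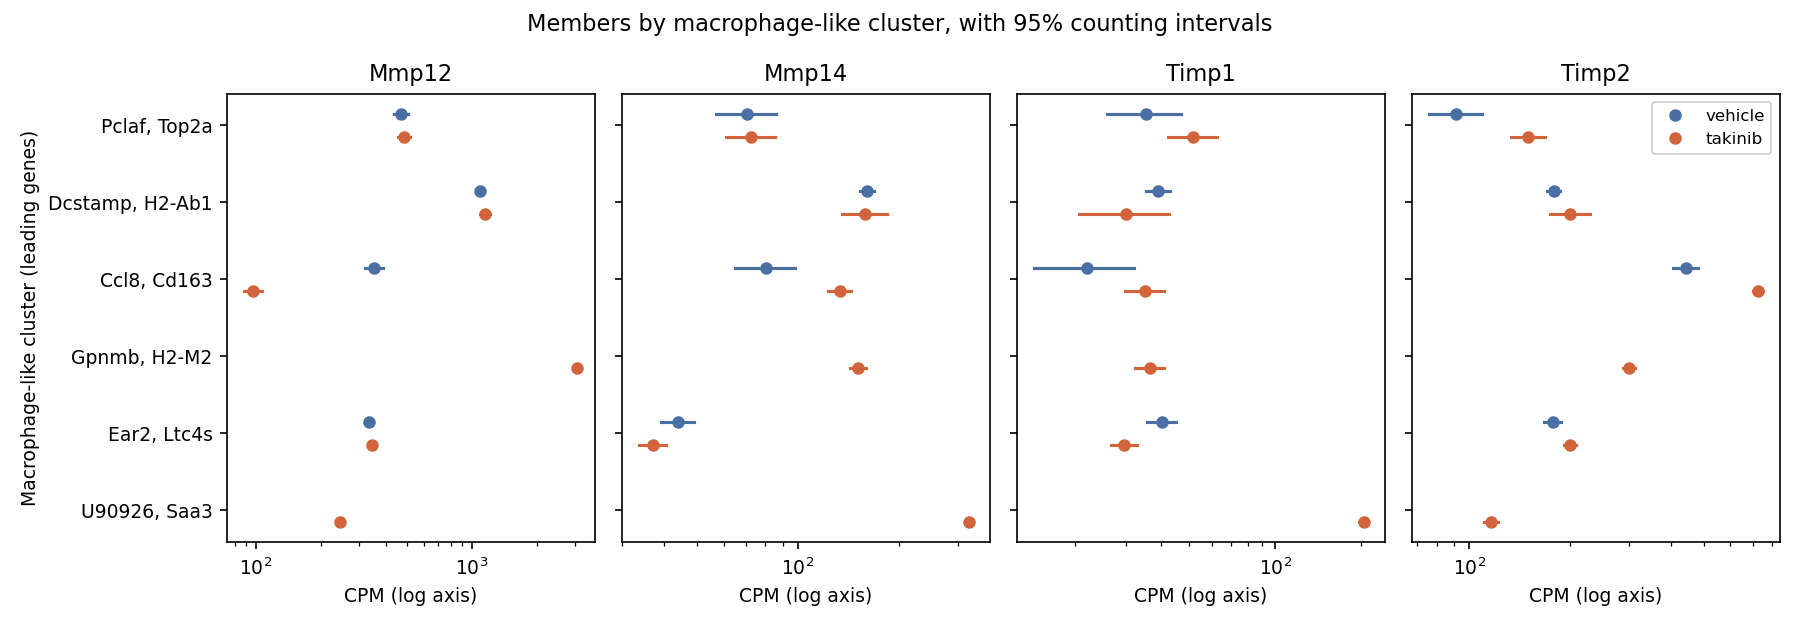
CPM (horizontal log axis) of Mmp12, Mmp14, Timp1 and Timp2 in 6 macrophage-like clusters named by their leading genes (rows), with 95% counting intervals and with a library shown only where it has at least 50 cells in the cluster. Takinib cells of the Gpnmb cluster are at 3077 CPM of Mmp12, those of the Saa3 cluster at 323 CPM of Mmp14 and 204 CPM of Timp1, and those of the Cd163 cluster at 725 CPM of Timp2.

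Mmp9, the gelatinase that neutrophils store in granules, was lower per UMI in takinib neutrophil-like cells and higher in takinib macrophage-like and epithelial-like cells. In the neutrophil-like class of 269 vehicle and 12068 takinib cells it had 565 and 18697 counts, or 1570 CPM (1443 to 1705) and 633 CPM (624 to 642), a log2 ratio of -1.31 (-1.43 to -1.19). This was no longer 2-fold with each library clustered on its own (log2 ratio -0.32) or with ratios scaled to the median gene (-0.68). Cells with a Mmp9 UMI were 70.6% and 53.6%, and 61.7% and 37.1% after thinning. In the Cxcr2- and G0s2-led cluster that held most vehicle neutrophil-like cells (254 vehicle, 3331 takinib) Mmp9 was at 1531 and 879 CPM, a log2 ratio of -0.80. Among takinib clusters it was highest, at 1313 CPM and in 93.3% of 675 cells, in one led by the granule genes Ltf, Ngp and Camp, and 419 to 606 CPM in 4 others. This class is the one in which most genes were lower: 36.3% of its 10124 genes measured were at least 2-fold lower, 6.62% at least 2-fold higher, and the median gene had a log2 ratio of -0.63. Of 7 members, 3 (Mmp9, Mmp14 and Timp3) were at least 2-fold lower and 0 higher, with a median of -0.18. Mmp14 and Timp3 rested on 16 and 10 vehicle counts, Timp2 was at 38.9 and 76.4 CPM on 14 and 2258 counts, and Mmp3 had 0 vehicle counts and 168 takinib counts, so no fold is given.

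In macrophage-like cells Mmp9 was at 14.2 and 134 CPM, a log2 ratio of 3.24 (3.07 to 3.42), and was counted in 2.79% and 18.7% of cells at median depths of 3900 and 6179 UMIs. The takinib share lay below that of takinib B-like cells, which had Mmp9 in 21.5% at a lower depth. After thinning the shares were 5.87% in takinib macrophage-like and 12.5% in takinib B-like cells. S100a8 and S100a9 together stood at 7261 CPM in takinib macrophage-like and 44641 CPM in takinib B-like cells. A share alone thus does not show expression by the class, and the part of neutrophil RNA in it was not tested. Its level per 1000 S100a8 and S100a9 counts gives a measure against neutrophil RNA in the same class. In the takinib library that ratio was 4.78 (4.71 to 4.85) in neutrophil-like and 4.85 (4.56 to 5.15) in epithelial-like cells, 5.20 in fibroblast-like and 4.27 in B-like cells, and 18.5 (18.04 to 19.005) in macrophage-like cells. Takinib T-like (7.84), erythroid-like (6.63), monocyte-like (6.56) and dendritic-like cells (30.8, with 1 cell holding 93 of 118 counts) also lay above neutrophil-like cells by more than counting error. In vehicle it was 30.2 in neutrophil-like, 54.9 in macrophage-like and 57.1 in epithelial-like cells. With a neutrophil profile subtracted in proportion to S100a8 and S100a9, Mmp9 in macrophage-like cells had a log2 ratio of 4.03, and in epithelial-like cells too few counts were left for one. The Saa3 cluster, with 9 vehicle cells, was at 196 CPM in takinib and held 51.3% of the class's takinib Mmp9 counts, and 56 of the 6199 takinib cells held at least 50%. In clusters present in both libraries the log2 ratio was 1.75 in the Ear2 cluster, 2.13 in the Cd163 cluster and 2.69 in the Dcstamp cluster, where 1 takinib cell held 61 of 76 counts; the cycling cluster was at 4.32, with 2 takinib cells holding at least 50% of 236 counts.

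In epithelial-like cells, 1708 in vehicle and 1912 in takinib, 10 members were measured. Of these 2 (Mmp3 and Mmp9) were at least 2-fold higher in takinib, against 7.28% of 13310 genes, and 0 were at least 2-fold lower, against 8.72%. Their median log2 ratio was -0.42, and that of all genes -0.16. Mmp3 had 6 and 144 counts, or 0.524 and 6.67 CPM, a log2 ratio of 3.67 (2.51 to 5.14), and 2 takinib cells held at least 50% of the counts. Its takinib level was below that of takinib B-like cells (8.77 CPM) and near that of takinib T-like cells (6.62 CPM). Mmp9 was at 5.50 and 47.8 CPM (log2 ratio 3.12), with S100a8 and S100a9 at 96.4 and 9852 CPM beside it. Mmp14 was at 187 and 116 CPM (log2 ratio -0.69), Timp1 at 282 and 164 CPM (-0.78), and Timp2 at 262 and 200 CPM (-0.39).

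The inhibitors in epithelial-like cells did not follow the class in each of its clusters. In a cluster led by Cdkn2a, Tnc and Prl2c2 (485 vehicle, 100 takinib cells) Timp1 was at 669 and 1839 CPM, a log2 ratio of 1.46 (1.38 to 1.54), and 7 takinib cells held at least 50% of its counts. In a cluster led by Wfdc2 and Gkn3 (1098 and 1503 cells) Timp1 was at 50.4 and 46.6 CPM. Timp2 was higher in takinib in both, at 556 and 892 CPM in the Cdkn2a cluster and 89.7 and 154 CPM in the Wfdc2 cluster, while the class as a whole was lower. Timp3 was at 42.3 and 29.4 CPM in the class, 76.2 and 52.9 CPM in the Cdkn2a cluster and 23.6 and 28.5 CPM in the Wfdc2 cluster. The Cdkn2a cluster, which has the higher inhibitor levels, made up fewer of the takinib cells. Its epithelial markers were at 7500.4 and 2574 CPM in sum and its fibroblast markers at 42.6 and 713 CPM, and their part was not tested. Mmp3 there was at 0.921 and 71.0 CPM, counted in 8 of 100 takinib cells.

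Among the vascular classes, vehicle perivascular-like cells held 36.7% of the library's Mmp11 counts, 34.8% of Mmp9, 18.3% of Mmp13 and 12.8% of Mmp14. Vehicle endothelial-like cells held 7.55% of Mmp14 and 7.02% of Timp3 counts. In endothelial-like cells (708 vehicle, 101 takinib) Timp3 was higher in takinib, at 391 and 614 CPM (log2 ratio 0.65, 0.48 to 0.82), opposite to its direction in fibroblast-like cells. Of the 101 takinib cells, 9 held at least 50% of these counts. Perivascular markers in endothelial-like cells stood at 135 and 296 CPM and fibroblast markers at 202 and 292 CPM, and their part was not tested. Mmp14, which endothelial cells use in sprouting, was at 298 and 155 CPM (log2 ratio -0.95), and Timp2 at 134 and 219 CPM. Mmp9 was at 3.81 and 140.1 CPM there, with S100a8 and S100a9 at 429.7 and 24389 CPM. Perivascular-like cells, 584 in vehicle, had Mmp14 at 478 CPM, Timp3 at 351 CPM, Timp1 at 329 CPM and Timp2 at 252 CPM. Their 552 Mmp9 counts (248 CPM) came from 52 cells, of which 3 held at least 50%, and their 98 Mmp13 counts from 17 cells, of which 2 held at least 50%.

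Lists of other genes of the pathway were read in the same 4 classes, with the same background shares as above. Of the other MMPs and Timp4, 16 genes listed in the tables, 0 of 2 measured in fibroblast-like cells were past 2-fold, while 4 of 5 in macrophage-like, 2 of 4 in neutrophil-like and 3 of 9 in epithelial-like cells were at least 2-fold higher, and 2 in epithelial-like cells lower. The granule collagenase Mmp8 and the leukocyte membrane enzyme Mmp25 were among those higher, with Mmp8 at 9.38 and 50.8 CPM in macrophage-like, 86.1 and 382 CPM in neutrophil-like, and 0.262 and 33.4 CPM in epithelial-like cells. Mmp25 was at 0.532 and 3.65 CPM in macrophage-like and 0.175 and 6.49 CPM in epithelial-like cells. Both stood beside the higher neutrophil markers of those classes, whose part was not tested. Mmp27 in macrophage-like cells (1 and 54 counts) and Mmp7 in neutrophil-like cells (1 and 876 counts) rested on 1 vehicle count. In fibroblast-like cells Mmp23 was at 187 and 315 CPM and Mmp19 at 54.7 and 69.7 CPM, both under 2-fold, and Mmp24 in epithelial-like cells was at 4.28 and 0.556 CPM.

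Of 15 activators, docking partners and clearance receptors, 1 was at least 2-fold higher and 3 lower of 13 measured in fibroblast-like cells, 2 and 2 of 11 in macrophage-like, 5 and 2 of 11 in neutrophil-like, and 1 and 1 of 13 in epithelial-like cells. Lcn2, which binds and protects MMP9 and is also a neutrophil granule protein, was higher in all 4 classes, at 56.1 and 1301 CPM in fibroblast-like, 11.02 and 1950.2 CPM in macrophage-like, 1445 and 12997 CPM in neutrophil-like and 212 and 2871 CPM in epithelial-like cells. Plat, the tissue plasminogen activator, was lower in fibroblast-like cells, at 405 and 129 CPM, and in macrophage-like cells, at 2.46 and 1.20 CPM; its neutrophil-like ratio rested on 3 vehicle counts. Thbs1, thrombospondin 1, was at 966 and 361 CPM in fibroblast-like cells and at 292 and 146 CPM in epithelial-like cells. Thbs2 was at 1.84 and 0.300 CPM in macrophage-like cells. Plaur, the urokinase receptor, was at 197 and 727 CPM in neutrophil-like cells, and the hyaluronan receptor Cd44 at 789 and 388 CPM in epithelial-like cells.

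Of 20 ADAM and ADAMTS proteases, the relatives that TIMP3 also inhibits, 2 were at least 2-fold higher and 4 lower of 16 measured in fibroblast-like cells, 2 and 3 of 11 in macrophage-like, 1 and 2 of 8 in neutrophil-like, and 2 and 8 of 17 in epithelial-like cells. Median log2 ratios were -0.12, -0.49, -0.22 and -0.63 in that order. In fibroblast-like cells Adamts4 was at 65.4 and 14.3 CPM, Adamts12 at 246 and 73.3 CPM and Adam19 at 159 and 46.5 CPM. In epithelial-like cells Adam12 was at 36.6 and 6.25 CPM, Adamts12 at 4.19 and 0.927 CPM and Adamts16 at 3.14 and 0.695 CPM. Adam8, a leukocyte sheddase, was higher in macrophage-like cells, at 54.9 and 177 CPM, and in neutrophil-like cells, at 72.2 and 158 CPM. Adamts1 was at 4.01 and 1.18 CPM and Adam28 at 2.95 and 1.29 CPM in macrophage-like cells. Adam15 was at 38.9 and 15.2 CPM and Adamts10 at 8.33 and 3.05 CPM in neutrophil-like cells, on 14 and 3 vehicle counts.

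Genes with the most similar pattern were found by Pearson correlation of log2(CPM + 10) over the 23 profiles of a class in a library, which share libraries, depth and the RNA of other classes, so the values are descriptions. Mmp2 was closest to Olfml3 (0.99), Cdh11 (0.98) and Mfap5 (0.97), Mmp3 to Chl1 (0.96), Osr1 (0.96) and Sbsn (0.95), Mmp11 to Srpx2 (0.97), Col5a3 (0.96) and Rasl11a (0.96), and Timp3 to Igfbp3 (0.98), Sparc (0.97) and Fkbp14 (0.97). Mmp9 was closest to Il1bos (0.84), G0s2 (0.84) and Nlrp12 (0.83), and Mmp12 to Lilra5 (0.90), AU022793 (0.88) and F7 (0.88). Mmp14 was closest to Lmna (0.91), Luzp1 (0.91) and Slc39a1 (0.90), Timp1 to Numbl (0.94), Azin2 (0.92) and Bicc1 (0.92), and Mmp13 to Gamt (0.89), Slc35f6 (0.83) and Rnd2 (0.82). The genes closest to Timp2 began with Timp1 (0.91), followed by Rassf8 (0.89) and Emp1 (0.89). Among the members themselves, Mmp14 followed Timp1 (0.90) and Timp2 (0.85), Mmp2 followed Timp3 (0.82), and Mmp9 had a correlation below 0 with each of the other 9.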

How the data were processed

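Single-cell RNA was counted in 2 libraries, 1 per group. The deposited matrices hold UMI counts per gene and barcode, not normalized. Per the submitters' processing notes, mm10, Cell Ranger 2.1.1, STAR 2.0.4b, Subread, featureCounts 1.45 and bcl2fastq were used, while per the file headers the matrices were written by Cell Ranger 4 (vehicle) and 6.1.1 (takinib); the conflict was not resolved.

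Kept barcodes had at least 1000 UMIs and 500 genes and at most 20% mitochondrial UMIs. Scrublet (scanpy 1.11.5) marked 3.18% of vehicle barcodes, which left out 314; its automatic threshold marked 0.00373% of takinib barcodes and did not work, so the 6% with the highest scores (1607) were left out. Both libraries were clustered together (2000 variable genes without the members and the 3 gene lists, 30 principal components, 15 neighbours, leidenalg 0.10.2, resolution 1). Clusters were named from marker lists by a rule set after the clusters were seen: at least 3 own markers detected in 10% of cells, and no other class scoring 0.75 or more of the best. A cluster also stayed unnamed where another class had more markers among its top 10 genes: the Serpinb2 cluster scored highest for mesothelial markers but had a fibroblast marker, Dcn, among its leading genes.

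Counts were summed per class and library and divided by the class's UMIs (CPM). Ratios had no pseudocount, needed 50 counts over both libraries, and counted as different at 2-fold; a library at 0 was put at a floor of 3 counts. No p-value or SE was computed. Intervals are exact (Poisson for sums, Clopper-Pearson for shares, conditional binomial for ratios) and cover counting error only. Median gene ratios and shares of all genes past 2-fold are given as background. The members and lists were chosen with earlier results of these data known.

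The text names all 10 members, per list and class the up to 3 genes with the largest ratio in either direction, and per member the 3 genes with the most similar pattern. Alternatives were another pseudocount, count minimum, cell filter, doublet rule, depth, resolution, clustering, naming, scaling, sex of the vehicle cells and a subtracted neutrophil profile. Leaving out the cell with the most counts, the shared barcodes, and counting the Serpinb2 cluster as fibroblast-like were chosen after seeing the data. Sequences are from RefSeq's GRCm38.p6 promoter table and positions from GENCODE vM21.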

Additional observations from a re-analysis of the deposited data

Results flagged for a closer look

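Mmp9 moved in opposite directions in different cell classes of the same 2 libraries. Its log2 ratio of takinib to vehicle was 3.24 in macrophage-like and 3.12 in epithelial-like cells and -1.31 in neutrophil-like cells. The neutrophil-like value was under 2-fold with each library clustered on its own (-0.32) and with ratios scaled to the median gene (-0.68). With 1 library per group the difference between the classes was not tested. The per-S100 values given for Mmp9 differ between these classes too: 18.5 per 1000 S100a8 and S100a9 counts in takinib macrophage-like cells, 4.85 in epithelial-like cells and 4.78 in neutrophil-like cells, against 54.9, 57.1 and 30.2 in vehicle.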

How the results depend on the processing

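No paired analysis was possible because each group has 1 library, which also leaves no replicate to leave out. Counts of members past 2-fold moved as follows, and the cause was not tested. In fibroblast-like cells, higher members were 5 with each library clustered on its own and 2 with ratios scaled to the median gene. They were 0 without the cell with the most counts and 3 with the Serpinb2 cluster included. Lower members there were 4 at 2000 UMIs and 1000 genes and 2 with scaling. At 10% mitochondrial UMIs and with thinning they were Mmp14, Timp1 and Timp3. With each library clustered on its own they were 4 (Mmp2, Mmp11, Mmp14 and Timp3), with log2 ratios of -2.58 for Mmp2 and -2.76 for Mmp11. In macrophage-like cells, lower members were 0 with a pseudocount of 10 CPM, and against Xist-only vehicle cells 5 were higher and 1 lower. In neutrophil-like cells, higher members were 1 with no doublet removal, with cells thinned to 1000 UMIs, at a resolution of 0.5 and with naming by best score alone, and 2 with scaling or without the cell with the most counts; lower members were 1 with scaling and 1 against Y-linked-only vehicle cells. In epithelial-like cells, higher members were 1 with a pseudocount, 5 against Xist-only vehicle cells and 1 with the neutrophil profile subtracted; lower members were 1 at 10% mitochondrial UMIs, 5 with each library clustered on its own and 3 against Xist-only vehicle cells. A called log2 ratio changed sign in 2 cases: Mmp12 in fibroblast-like cells, 1.03 with each library clustered on its own, and Timp1 in macrophage-like cells, -0.36 at a resolution of 0.5. Fibroblast-like cells gave no value without doublet removal and at a resolution of 0.5. Neutrophil-like cells gave none at 2000 UMIs and 1000 genes, at 10% mitochondrial UMIs, and against Xist-only vehicle cells, where fewer than 50 vehicle cells were left. Depth limits Mmp3, Mmp11 and Mmp13, and all members in vehicle neutrophil-like cells but Mmp9.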
